A study of Mus musculus with 6 samples.

Results

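The 9 antiviral effector genes described here form 1 group: Ifit1, Ifit1bl1, Ifit2, Ifit3 and Ifit3b of the Ifit family, the dynamin-like GTPases Mx1 and Mx2, Rsad2, which encodes viperin, and its chromosomal neighbour Cmpk2. They were chosen by symbol, with earlier results of these data known. They are the 9 of 55453 rows of the deposited count table that carry these names. Counts of them beside all tested genes thus describe a chosen list and are not a test. All 9 genes passed the filter on low counts, which left 14877 genes. Their messenger RNA was read out by RNA sequencing after poly(A) selection, in 3 knockout libraries (PP2AcKO, genotype label PP2A KO) and 3 wild-type libraries (PP2AcWT, genotype label Wild Type). All 6 carry the source label SB28, a transplantable mouse glioma line, and the strain label C57BL/6, and the sample labels give no treatment, time or age. The design text of the series describes something else, namely subcutaneous or intracranial SB28 tumours taken and dissociated 18 days after implantation, from wild-type hosts and from LysMcre hosts with a floxed PP2Ac gene, in which Cre is driven by a myeloid promoter. The labels do not say which cells carried the deletion, whether the knockout libraries come from 1 clone, or whether the replicates were separate cultures or animals. The p values therefore reflect only how far these libraries scatter, and that scatter may be technical.

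As background, these genes are classical targets of type I interferon. Interferon alpha and beta bind the receptor chains IFNAR1 and IFNAR2, the kinases JAK1 and TYK2 are activated, and the factor ISGF3, which holds STAT2 and IRF9, binds the interferon-stimulated response element in promoters. IRF3, the factor activated through STING or MAVS, can switch on several of them without interferon. IFIT proteins bind foreign RNA ends or the translation factor eIF3 and block viral translation. Mx proteins form rings that trap viral nucleoproteins. Viperin is a radical SAM enzyme that turns CTP into a chain-terminating nucleotide, and CMPK2 is a mitochondrial kinase that feeds CTP synthesis.

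Library totals ran from 38735864 to 49344079 counts. The libraries numbered 1 stood apart: chi-square over degrees of freedom was 29.7 to 48.4 for pairs within a group that held a library 1, and 3.41 and 4.61 for the other 2 pairs. The targeted gene Ppp2ca was at 255 ± 16.5 in wild type, against 199 ± 15.6 CPM in knockout (counts per library, scaled by its total and its TMM factor; log2 fold change -0.36, edgeR adjusted p = 0.00377). Which part of Ppp2ca was altered is not given in the sources used here, so its level is only a partial check of the labels. Fewer cells of a type and less RNA per cell cannot be told apart in these bulk libraries. Of 21 leukocyte markers 8 had no count, Adgre1, Cd3e and Cd8a among them, and Ptprc was read 31 times in wild type and 11 times in knockout. The list summed to 98.2 to 118 CPM in wild type and 91.6 to 108 CPM in knockout, nearly all from its 4 tested genes Tmem119, Cd14, Cd68 and S100a8. Of these, Tmem119 fell (log2 fold change -1.14), and Cd14 (2.13), Cd68 (0.56) and S100a8 (6.20) rose. Of 10 glial and glioma markers Olig1, Olig2 and Sox10 had no count, and the list, mostly Nes and Sox2, summed to 511 to 555 and 283 to 301 CPM. In it Nes (log2 fold change -1.16), Sox2 (-0.57), S100b (-2.36) and Cspg4 (-6.05) fell and Pdgfra (0.30) rose. The fibroblast and mural list, mostly Col1a1, summed to 1591 to 2272 and 1262 to 1830 CPM, the endothelial list, mostly Cdh5, to 399 to 431 and 419 to 456 CPM, and the neuron list to 12.2 to 14.5 and 10.4 to 14.3 CPM. Single genes in these lists went both ways: Dcn (4.66), Pdgfrb (0.67) and Kdr (2.23) rose, and Rgs5 (-2.47), Tek (-2.23) and Snap25 (-3.17) fell. The part of these marker differences in the results was not tested.

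The group did not move as a block. Rsad2, Mx2, Ifit1, Cmpk2, Ifit3b and Ifit3 rose in the knockout, Mx1 and Ifit1bl1 fell, and Ifit2 did not pass the threshold. A gene was called where the quasi-likelihood F-test of edgeR gave a Benjamini-Hochberg adjusted p below 0.05, adjusted across every tested gene. Of the 9, 8 were thus called, where the share of all tested genes called was 64.0%. By direction, 6 were higher, against 31.9% of all tested genes, and 2 were lower, against 32.1%. The median log2 fold change, knockout over wild type, was 0.63 over the 9 genes and -0.01 over all tested genes. The CPM ranges of the groups did not overlap for 8 of the 9, against 68.3% of all tested genes. Of these, 6 had the knockouts above (33.9% of all tested genes) and 2 had them below (34.4%). Without the libraries numbered 1 the same 6 higher and 2 lower calls were made, and Ifit2 joined the lower ones. That fit called 74.6% of its 14906 tested genes, with 5588 higher and 5535 lower. Summed over the 9 genes, the level was 360 ± 37.0 in wild type, against 675 ± 59.2 CPM in knockout (SD, n = 3).

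**Figure D1:**
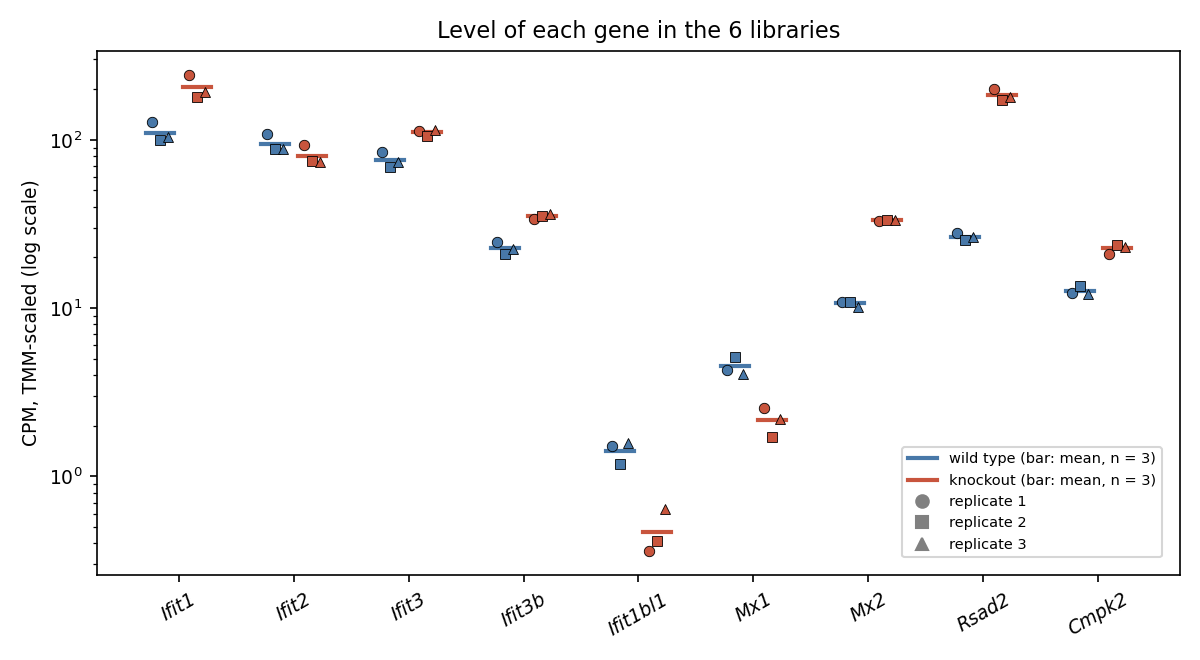
CPM of each of the 9 genes on a log axis, with the 3 wild-type libraries in blue, the 3 knockout libraries in red and bars at the means. Mx1 and Ifit1bl1 sit lower in every knockout library, Ifit2 overlaps between the groups, and the other 6 genes sit higher in every knockout library.

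The Ifit genes lie in a row on chromosome 19, where 6 annotated Ifit genes span 99.3 kb of GRCm38. Ifit1, whose product binds RNA caps that lack ribose methylation, covers 34640871 to 34650009 on the plus strand (ENSMUSG00000034459.8). It stood at 128, 99.7 and 104 CPM (wild type 1, 2 and 3), against 244, 180.3 and 193 CPM (knockout 1, 2 and 3). The library numbered 1 was the highest of its group in both, and the groups did not overlap. Group means of 110.4 ± 15.3 and 206 ± 33.7 CPM (SD, n = 3) gave 0.90 as log2 fold change (SE 0.13, edgeR adjusted p = 0.000331), or 1.86-fold. Ifit3, an adaptor that stabilises IFIT1 on RNA in human cells, was at 84.8, 68.5 and 73.7 CPM in the wild-type libraries, against 113, 105 and 114 CPM in the knockouts. Every knockout library lay above every wild-type library, and the log2 fold change was 0.55 (SE 0.09, edgeR adjusted p = 0.000551). Its near copy Ifit3b was at 24.6, 21.1 and 22.5 CPM in the wild-type libraries, against 34.0, 35.3 and 36.3 CPM in the knockouts, again without overlap (log2 fold change 0.63, SE 0.08, edgeR adjusted p = 0.000161). Neither Ifit3 (adjusted p = 0.83) nor Ifit3b (adjusted p = 0.349) passed edgeR's test against a fold change of 1.5.

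The split of reads between Ifit3 and Ifit3b is uncertain. Of the 50-base words of Ifit3 transcripts, 51.2% also occur in another gene's transcripts, all of these shared words being in Ifit3b, and for Ifit3b the share is 45.0%. With 100-base words the shares were 31.7% and 27.4%. How the counting treated reads that match both genes is not given in the sources used here. For Ifit1 the share of 50-base words was 7.13%, for Ifit1bl1 6.45%, for Mx1 4.37% and for Mx2 4.38%, while Ifit2, Rsad2 and Cmpk2 shared none. No exon of the 9 genes lies under an exon of another annotated gene on either strand.

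Ifit2, an inhibitor of translation that has also been tied to cell death, was the one member without a call. It stood at 108, 88.4 and 88.2 CPM in the wild-type libraries, against 92.6, 74.8 and 73.5 CPM in the knockouts. Knockout 1 lay above wild type 2 and 3, so the groups overlapped, yet each knockout library lay below the wild-type library of the same number. The log2 fold change was -0.24 (95% interval -0.50 to 0.02, edgeR adjusted p = 0.095). In a fit blocked by replicate number the value was again -0.24 and Ifit2 was called lower (edgeR adjusted p = 1.57e-05). The labels do not say that the numbers pair the libraries, and in these counts only the libraries numbered 1 stood apart. The blocked fit called 77.3% of all tested genes. Ifit2 was also called without knockout 1 (-0.34, edgeR adjusted p = 0.0102) and without both libraries numbered 1 (-0.25, edgeR adjusted p = 6.54e-06). Without wild type 1 its value was -0.14 (edgeR adjusted p = 0.297). Over all 15 alternatives the adjusted p ran from 6.54e-06 to 1.0, and the direction was downward in each.

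Ifit1bl1, an Ifit1-like gene whose role is little studied, was rare and fell. The wild-type libraries held 77, 52 and 63 counts and the knockouts 16, 17 and 25, or 1.42 ± 0.216 against 0.471 ± 0.148 CPM (SD, n = 3). All knockout libraries lay below all wild-type libraries, and the log2 fold change was -1.60 (SE 0.25, edgeR adjusted p = 0.000504), a 3.04-fold lower level. Its relative Ifit1bl2, which is not among the 9 but lies in the same cluster, moved the other way. Ifit1bl2 was at 1.67 ± 0.393 in wild type, against 3.67 ± 0.546 CPM in knockout (log2 fold change 1.13, SE 0.19, edgeR adjusted p = 0.000763). Of its 50-base words, 9.34% also occur in another gene's transcripts (5.55% in Ifit1, 4.22% in Ifit1bl1). Ifit1 was far more abundant, at 110.4 and 206 CPM, and how far its reads enter the Ifit1bl2 count was not tested. Along the chromosome the order was Ifit2 (not called), Ifit3 (higher), Ifit1bl1 (lower), Ifit3b (higher), Ifit1bl2 (higher) and Ifit1 (higher).

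**Figure D2:**
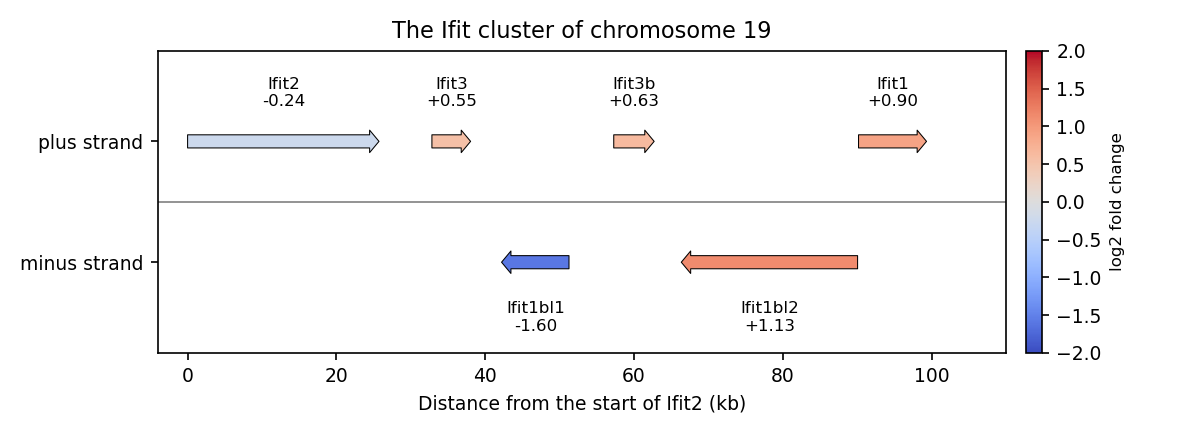
Map of the 6 Ifit genes by distance in kb from the start of Ifit2, with an arrow in the direction of transcription, coloured by log2 fold change (printed with each name). Ifit1bl1, at -1.60, lies between Ifit3 at 0.55 and Ifit3b at 0.63.

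Promoter sequences are shown for the members with a match to the core of the interferon-stimulated response element, so that those that rose can be read beside Ifit1bl1, which fell. RefSeq windows on GRCm38.p6, from 250 bases before to 50 bases after a transcript start, were at hand for 7 of the 9 members, and for Mx1 and Mx2 none was used. The motif searched was GAAA, any 2 bases and GAAA, on both strands, together with a longer form that contains it and ends in CT. Of 32851 windows, 3.44% held the shorter motif and 0.271% the longer. Ifit1, Ifit3, Ifit3b, Ifit1bl1 and Rsad2 held the shorter motif in the window of a start, and Ifit2 and Cmpk2 did not. Below are the 200 bases before the first listed start of 4 Ifit genes, 5′ to 3′ on the strand of the gene, with matches to the shorter motif in capitals. All of these matches are on the opposite strand and so read TTTC, 2 bases, TTTC.
Ifit1, chr19:34640689-34640888, plus strand: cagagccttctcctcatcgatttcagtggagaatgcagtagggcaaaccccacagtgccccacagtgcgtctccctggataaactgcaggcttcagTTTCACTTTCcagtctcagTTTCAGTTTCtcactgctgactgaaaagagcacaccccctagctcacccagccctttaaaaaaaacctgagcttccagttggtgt
Ifit3, chr19:34583329-34583528, plus strand: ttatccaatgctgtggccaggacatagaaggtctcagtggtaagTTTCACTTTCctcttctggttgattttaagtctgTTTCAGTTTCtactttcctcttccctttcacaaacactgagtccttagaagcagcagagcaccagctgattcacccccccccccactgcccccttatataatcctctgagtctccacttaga
Ifit3b, chr19:34607757-34607956, plus strand: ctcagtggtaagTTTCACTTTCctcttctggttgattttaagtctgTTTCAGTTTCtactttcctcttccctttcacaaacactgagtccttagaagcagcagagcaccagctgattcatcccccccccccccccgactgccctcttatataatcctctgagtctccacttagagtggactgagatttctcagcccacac
Ifit1bl1, chr19:34601969-34602168, minus strand: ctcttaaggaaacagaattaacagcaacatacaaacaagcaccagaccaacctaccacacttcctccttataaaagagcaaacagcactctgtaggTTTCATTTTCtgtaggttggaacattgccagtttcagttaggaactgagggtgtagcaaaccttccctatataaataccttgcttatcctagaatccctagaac

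Ifit1 held 2 matches, at 95 to 104 and 76 to 85 bases before the start, and both were part of a match to the longer motif. Ifit3 held 2, at 147 to 156 and 113 to 122 bases, and Ifit3b held 2 at 179 to 188 and 145 to 154 bases, and in each gene only the farther match fitted the longer motif. The windows of Ifit3 and Ifit3b align with 94.5% identity over 274 columns, so these members share a promoter sequence as well as much of their transcripts. Ifit1bl1, which fell, held 1 match to the shorter motif at 95 to 104 bases, and 1 at 14 to 23 bases before its second listed start. The RefSeq starts of Ifit1 and Ifit1bl2 lie 146 bases apart on opposite strands, and the pair of matches before Ifit1 (34640785 to 34640794 and 34640804 to 34640813) also lies before the start of Ifit1bl2. These divergent neighbours were 1.86-fold and 2.19-fold higher, though the rare Ifit1bl2 shares part of its transcript sequence with Ifit1. A match describes the letters of a window and is not a measured binding site.

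**Figure D3:**
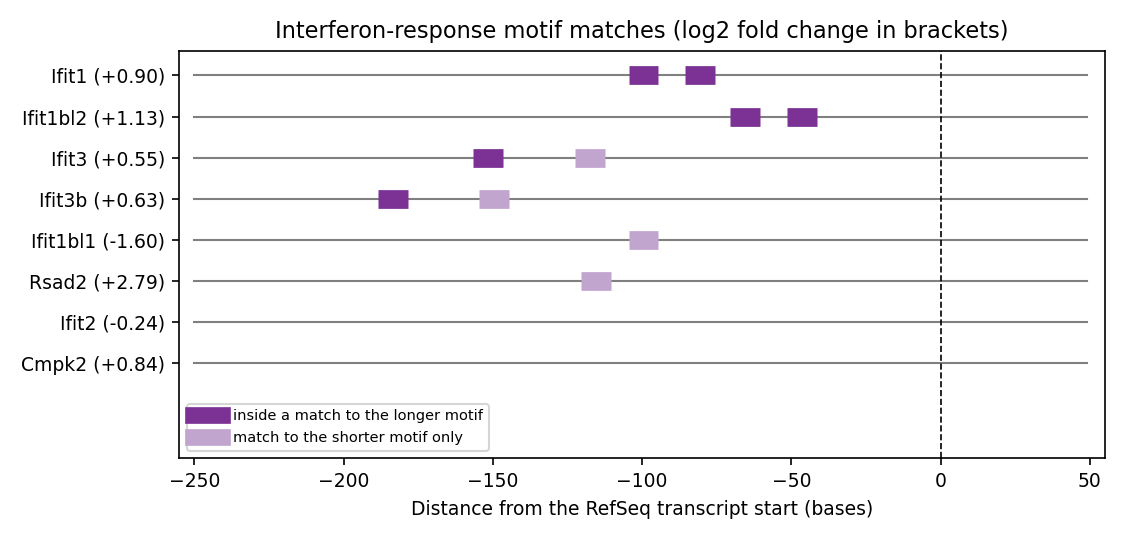
Positions of matches to the shorter motif by distance in bases from the first listed RefSeq transcript start, in windows of 7 members and Ifit1bl2, dark where they lie inside a match to the longer motif, with the log2 fold change in brackets. Ifit2 and Cmpk2 hold none, and Ifit1bl1 and Rsad2, at -1.60 and 2.79, hold 1 each.

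The Mx genes moved apart. Mx1 (chromosome 16, 97447035 to 97462907, minus strand, ENSMUSG00000000386.15) and Mx2 (97535308 to 97560900, plus strand, ENSMUSG00000023341.15) start 72.4 kb from each other. In mice, Mx1 acts in the nucleus and Mx2 in the cytoplasm. C57BL/6 and most other inbred strains carry alleles of both that give no functional protein, and the GENCODE annotation types Mx2 as a polymorphic pseudogene and lists 3 of 10 Mx1 transcripts as targets of nonsense-mediated decay. The counts thus measure message and say nothing of Mx protein. Mx1 was at 4.31, 5.13 and 4.08 CPM in the wild-type libraries, against 2.55, 1.71 and 2.20 CPM in the knockouts, with every knockout library lower. Its log2 fold change was -1.06 (SE 0.17, edgeR adjusted p = 0.000519), a 2.09-fold lower level. Mx2 was at 10.9, 10.8 and 10.2 CPM in the wild-type libraries, against 33.1, 33.4 and 33.5 CPM in the knockouts. Its spread was small in both groups, and the log2 fold change was 1.64 (SE 0.08, edgeR adjusted p = 2.68e-07), a 3.12-fold higher level.

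Rsad2 changed most among the 9 genes. It lies on chromosome 12, 26442746 to 26456452, minus strand (ENSMUSG00000020641.16). Its level was 27.8, 25.4 and 26.6 CPM in the wild-type libraries, against 201, 173 and 179.7 CPM in the knockouts, and the lowest knockout library lay far above the highest wild-type one. Group means of 26.6 ± 1.16 and 185 ± 14.4 CPM (SD, n = 3) gave 2.79 as log2 fold change (SE 0.08, edgeR adjusted p = 2.42e-08), or 6.94-fold. Of all tested genes, 404, Rsad2 included, had a log2 fold change at least this high. Its promoter held 1 match to the shorter motif, in capitals in the 200 bases before its start, at 111 to 120 bases.
Rsad2, chr12:26456453-26456652, minus strand: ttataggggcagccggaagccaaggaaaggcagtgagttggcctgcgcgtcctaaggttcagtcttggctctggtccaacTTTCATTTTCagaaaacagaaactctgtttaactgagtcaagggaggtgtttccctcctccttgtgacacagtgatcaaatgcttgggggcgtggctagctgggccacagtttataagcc

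Cmpk2 (chromosome 12, 26469204 to 26479837, plus strand, ENSMUSG00000020638.8) points away from Rsad2, with 12.8 kb between the starts. It was at 12.3, 13.6 and 12.1 CPM in the wild-type libraries, against 21.0, 23.8 and 23.0 CPM in the knockouts, without overlap. The log2 fold change was 0.84 (SE 0.09, edgeR adjusted p = 4.91e-05), or 1.79-fold. Its window held no match to the motif, which says only that these letters are not in it. The genes of this pair thus rose by unequal amounts.

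**Figure D4:**
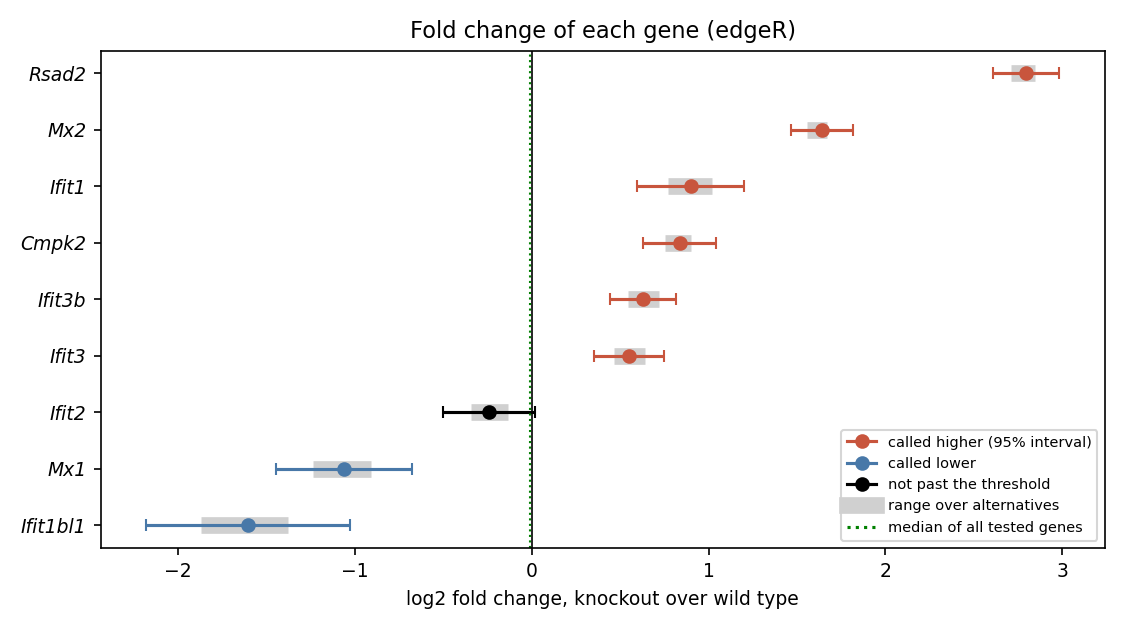
Log2 fold change of each gene, knockout over wild type, with its 95% interval from the edgeR fit, a grey bar for the range over the alternatives, and a dotted line at the median of all tested genes (-0.01). Rsad2 is the highest at 2.79 and Ifit1bl1 the lowest at -1.60, and the interval of Ifit2 includes 0.

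Levels of different genes were compared only per length of exon, as CPM per kb. Exon length was counted in full, also for Ifit3 and Ifit3b, where the counting of reads that match both is not known. The places of Ifit3 and Ifit3b in the order, and all shares of the sum, depend on that counting. In wild type the order was Ifit3 (43.4 ± 4.75), Ifit1 (41.6 ± 5.75), Ifit2 (24.1 ± 2.88), Ifit3b (11.4 ± 0.891), Rsad2 (6.13 ± 0.268), Cmpk2 (3.04 ± 0.2), Mx2 (2.95 ± 0.108), Mx1 (1.19 ± 0.145) and Ifit1bl1 (0.63 ± 0.0955 CPM per kb, SD, n = 3). Ifit3 and Ifit1 overlapped, and so did Cmpk2 and Mx2, while the other neighbours in this order did not overlap. In knockout Ifit1 led at 77.5 ± 12.7 CPM per kb, followed by Ifit3 (63.5 ± 2.69), Rsad2 (42.6 ± 3.32), Ifit2 (20.4 ± 2.72), Ifit3b (17.6 ± 0.567), Mx2 (9.21 ± 0.0599), Cmpk2 (5.43 ± 0.351), Mx1 (0.569 ± 0.112) and Ifit1bl1 (0.208 ± 0.0656). No neighbours in the knockout order overlapped. Rsad2 thus passed Ifit2 and Ifit3b in level, and its share of the 9 genes' summed CPM per kb was 4.58% ± 0.289 in wild type and 18.0% ± 0.131 in knockout (SD, n = 3). Over the same groups the share of Ifit2 was 18.0% ± 0.426 and 8.61% ± 0.521, and that of Cmpk2 2.28% ± 0.343 and 2.31% ± 0.33.

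**Figure D5:**
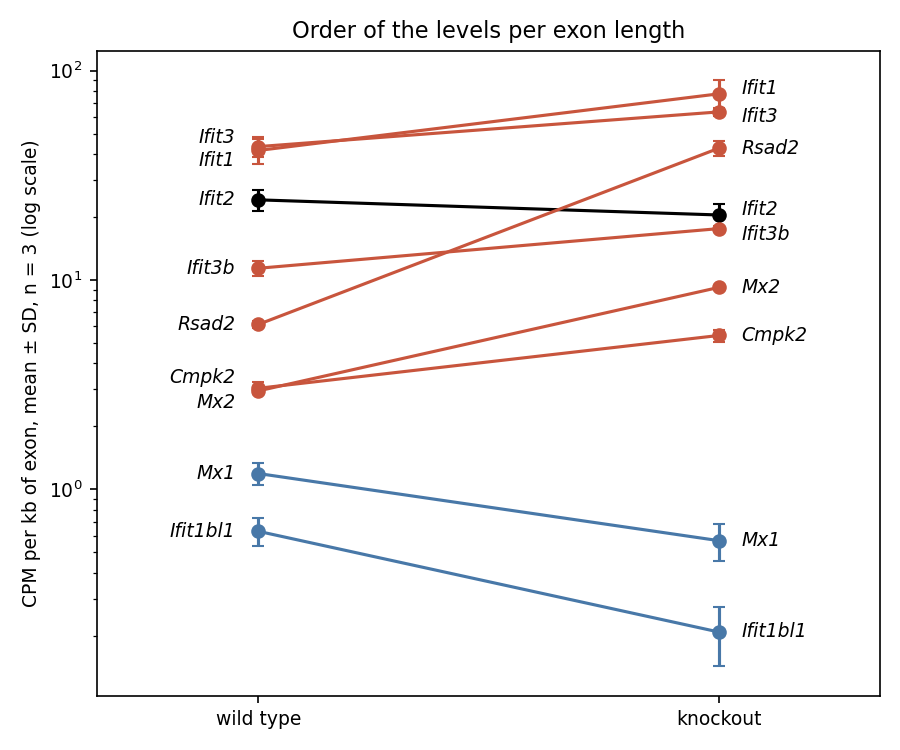
Mean level per kb of exon in wild type and knockout on a log axis, with SD over 3 libraries as error bars, red for genes called higher, blue for lower and black for Ifit2. The Rsad2 line rises from 6.13 to 42.6 CPM per kb and crosses those of Ifit2 and Ifit3b.

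Whether members moved by different amounts was asked with 7 ratios within each library, taken after 0.5 CPM was added to both levels, which draws ratios with a rare gene such as Mx1 towards 0. With 3 libraries against 3, an exact two-sided permutation test cannot give less than 0.1. The log2 ratio of Rsad2 to Cmpk2 was 1.04 ± 0.144 in wild type and 3.0 ± 0.203 in knockout (SD, n = 3; exact p = 0.1, adjusted over the 7 ratios 0.117). That of Mx2 to Mx1 went from 1.16 ± 0.132 to 3.68 ± 0.242, a shift of 2.52, which was 2.72 with nothing added, and that of Rsad2 to Ifit3 from -1.49 ± 0.0945 to 0.73 ± 0.0836. Against Ifit3, Ifit1 gained 0.34 on the log2 scale, Ifit2 changed by -0.79 and Mx1 by -1.47 (-1.63 with nothing added). The gain of Ifit1 was 0.23 without knockout 1 and 0.40 without knockout 3. In these 6 ratios the groups did not overlap, with 0.5 CPM or nothing added, and each had the same exact p of 0.1. The ratio of Ifit3b to Ifit3 overlapped between the groups, at -1.71 ± 0.0465 in wild type and -1.64 ± 0.0776 in knockout (exact permutation p = 0.3, adjusted 0.3).

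Among the 2 nearest tested protein-coding genes on each side of the 3 member loci, 4 were higher, 5 lower and 3 not past the threshold, where 31.9% of all tested genes were higher and 32.1% lower. Next to Ifit2, the lysosomal lipase gene Lipa rose from 37.4 ± 1.62 to 47.9 ± 3.68 CPM (log2 fold change 0.36, edgeR adjusted p = 0.00387). Ch25h, which makes 25-hydroxycholesterol and is itself known as an interferon target, rose from 0.989 ± 0.14 to 2.38 ± 0.355 CPM (log2 fold change 1.25, edgeR adjusted p = 0.000309). Beyond Ifit1, Pank1, a kinase of coenzyme A synthesis, fell by 0.72 on the log2 scale and the mitotic kinesin gene Kif20b by 0.84. Bace2, a protease gene 4.10 kb from Mx1, was not past the threshold (-0.64, edgeR adjusted p = 0.0754). Sh3bgr, the next tested protein-coding gene on that side, lies 1218 kb off and was rare. It fell by 1.22 on the log2 scale, from 0.365 to 0.153 CPM. On the Mx2 side Prdm15 rose by 0.28 while C2cd2 was not called (-0.20, edgeR adjusted p = 0.0548). Around Rsad2 and Cmpk2 the nearest tested protein-coding genes were far off. The transcription factor genes Id2 (1346 kb away) and Sox11 (854 kb) fell by 1.52 and 1.47. Kidins220 (1380 kb) rose by 0.42 and Rps7 (2151 kb) did not pass (-0.22, edgeR adjusted p = 0.068).

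Genes of interferon signalling, its brakes and nucleic acid sensing were taken in lists. Their counts stand beside the 31.9% of all tested genes called higher and the 32.1% called lower. Whether the listed genes act on the members here or moved along with them was not tested. Of 21 interferon genes none was abundant enough to test, 6 had any count, and their counts summed to 14 in wild type and 56 in knockout. Ifnb1, the gene of interferon beta, was read 0, 1 and 0 times in the wild-type libraries and 13, 13 and 6 times in the knockouts, a depth-scaled ratio of 34.6 (95% exact counting interval 5.78 to 1409). Among 11 tested genes of interferon receptors and ISGF3 signalling, 9 rose and 0 fell, with a median log2 fold change of 0.80. Ifnar1 stayed within its spread at 91.9 ± 0.839 and 89.6 ± 3.21 CPM (log2 fold change -0.04, edgeR adjusted p = 0.632), while Ifnar2 rose by 0.73 (SE 0.08, edgeR adjusted p = 4.68e-05). Of the genes of ISGF3, Stat2 rose from 102 ± 1.26 to 291 ± 8.14 CPM and Irf9 rose from 50.2 ± 1.39 to 113 ± 3.93 CPM. Their log2 fold changes of 1.51 and 1.17 lay above that of Ifit1 and below that of Rsad2.

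Of the other interferon regulatory factors 6 were tested, with 3 higher, 2 lower and a median of 0.12. Irf7, which amplifies interferon production, rose by 2.39 on the log2 scale (SE 0.10, edgeR adjusted p = 1.51e-07), and Irf2 by 0.54. Brakes on signalling were higher in 5 of 7 cases and lower in 1 (median 0.52). Usp18, which removes ISG15 and blocks the receptor, rose from 28.2 ± 0.709 to 148 ± 5.75 CPM, and Socs3 from 26.6 ± 2.36 to 84.6 ± 9.62 CPM. In the RNA sensing list 6 of 8 rose and 1 fell (median 0.63). The sensor genes Ifih1, for MDA5, and Ddx58, for RIG-I, rose by 1.88 and 1.30. In the DNA sensing list 4 of 5 rose and 1 fell (median 0.41), with log2 fold changes of 4.25 for the nucleic acid sensor gene Zbp1 and 2.25 for the kinase gene Ikbke.

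Lists of the members' known substrates and partners are small, and their counts stand beside the same 31.9% higher and 32.1% lower among all tested genes. Among 5 genes of cap methylation, a process whose ribose marks are absent from the caps that IFIT1 binds, 3 rose and 1 fell (median 0.45). Cmtr1, the enzyme of the first ribose methylation, rose from 5.88 ± 0.51 to 9.05 ± 0.81 CPM, and the guanine methyltransferase gene Rnmt from 55.1 ± 2.62 to 75.4 ± 7.38 CPM. Of 13 eIF3 subunit genes 1 rose, 5 fell and 7 did not pass (median -0.20). The one that rose was Eif3c, whose product IFIT proteins of mice bind, from 410.2 ± 8.02 to 636 ± 14.1 CPM (log2 fold change 0.63, SE 0.06, edgeR adjusted p = 1.81e-05), while Eif3l fell by 0.60. In the dynamin family, to which Mx proteins are related, Dnm1l and Dnm2 rose by 0.41 and 0.36, 0 of 5 fell, and the median was -0.10. Of 8 reported viperin partners 3 rose and 3 fell (median 0.09). Fdps, the farnesyl diphosphate synthase that viperin has been reported to bind, fell from 11.8 ± 0.633 to 2.27 ± 0.46 CPM, and the membrane protein gene Vapa rose by 0.75. Among 15 other nucleoside and nucleotide kinases, the wider class of Cmpk2, 1 rose and 8 fell (median -0.21). Tk1 and Dtymk, of thymidine phosphorylation, fell by 2.30 and 0.76.

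Genes with the most similar course over the 6 libraries were found by the root mean square difference of centred log2 CPM, among 12820 named genes outside the group. Nearest to Rsad2 were Gbp3, an interferon-inducible guanylate-binding protein (difference 0.0548 on the log2 scale), the zinc finger gene Glis3 (0.0582) and the integrin gene Itga2 (0.0724). Gbp3 was at 31.3 ± 2.28 in wild type, against 207 ± 11.8 CPM in knockout. Nearest to Ifit1 were the growth factor gene Fgf2 (0.0311), Gnpnat1 of amino sugar synthesis (0.032) and Nampt of NAD salvage (0.0339). Their log2 fold changes of 0.88, 0.89 and 0.86 lay close to the 0.90 of Ifit1. As in Ifit1, the library numbered 1 was the highest of its group in both groups. A small difference thus reflects a like fold change and the outlying libraries numbered 1. Nearest to Mx1 were Kif24 (0.0944), Chst15 (0.0975) and Slco5a1 (0.109). Within the group, Ifit1 was nearest to Ifit3 (0.206) and Ifit3b (0.21), and Rsad2 to Mx2 (0.582).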

How the data were processed

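The authors deposited 1 table of raw counts, with symbols in rows and the 6 libraries in columns. Per the submitters' processing notes the tools included STAR 2.7.1a and HTSeq 0.11.2, and the builds named are mm10 and GRCm38. Not given in the sources used here were the gene annotation's release and whether counting used strand. Sample titles gave each column's group and number. The 9 genes and the lists were chosen with earlier results of these data known.

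Counts passed filterByExpr (edgeR 4.0.16) and were scaled by TMM and tested with glmQLFit and glmQLFTest (R 4.3.3), with Benjamini-Hochberg adjustment over 14877 genes at a threshold of 0.05. The fit was tested on simulated data. The standard error is the log2 fold change over the root of its F statistic, and intervals use 95%. Counting intervals cover counting error only. Library totals of 38735864 to 49344079 counts give the depth. Ratios within a library had 0.5 added to each CPM value, which is not small beside a rare gene and leaves them dependent on scaling, and profiles used edgeR's log2 CPM with a prior count of 2. Positions, exon lengths and transcripts came from GENCODE M21 on GRCm38, which paired 54402 of 55453 symbols with 1 gene, and promoter windows from RefSeq on GRCm38.p6.

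Deviations from the group means, over 14877 genes, correlated at 0.443, 0.161 and 0.15 for libraries of the same number 1, 2 and 3. Wild type 3 with knockout 2 gave 0.189, and wild type 2 with knockout 3 gave 0.15. Deviations within a group cancel out by construction, so the link of the libraries numbered 1 raises the values among the others. These counts thus set apart only the libraries numbered 1, and neither they nor the labels pair numbers 2 and 3. Besides the 9 genes, those named by rule are Stat2, Irf9, Irf7, Usp18, Ifnar1, Ifnar2 and Ifnb1, the targeted gene, Ifit1bl2, up to 2 genes of each list with the smallest adjusted p, the 2 nearest neighbours on each side of each locus, and the 3 nearest profiles of Ifit1, Mx1 and Rsad2. Some genes under these rules are not reported here. Markers were named after their values were seen. Alternatives were DESeq2 1.42.0, other scalings and filters, leaving out libraries, the replicate block and a test against a fold change of 1.5.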

Additional observations from a re-analysis of the deposited data

How the results depend on the processing

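The 9 genes gave 133 fold changes under the alternatives, of which 125 kept their direction and their side of the threshold, 6 moved Ifit2 past it, 2 took Ifit3 and Ifit3b below it in the test against a fold change of 1.5, and 0 reversed. Besides the settings named with the results, Ifit2 passed with upper-quartile factors (-0.31, adjusted p = 0.0412), with library totals (-0.33, adjusted p = 0.0335) and with no filter (-0.23, adjusted p = 0.0387). The first of these scalings put the median of all tested genes at -0.07 and the second at -0.09. DESeq2 called 6 members higher and 2 lower, as edgeR did. With a mean of at least 5 CPM required, Mx1 and Ifit1bl1 were not tested, so the number of members called lower was 0. Against a fold change of 1.5, 3966 of all tested genes were called in place of 9525. Leaving out 1 library at a time gave 8457 to 9701 calls over all genes, 6 higher members each time and 2 or 3 lower ones. With the replicate block 11495 genes were called, with 6 members higher and 3 lower, and the block changed no other call among the members. Adding 2 CPM in place of 0.5, about the level of Mx1 in knockout, brought 2 ratio shifts nearer to 0. That of Mx2 to Mx1 went from 2.52 to 2.13 and that of Mx1 to Ifit3 from -1.47 to -1.19. The other 61 of the 63 ratio values moved by less than the larger of the SDs of the 2 groups. Among them are those with nothing added, an alternative chosen after seeing the data. Depth limits Ifit1bl1 most, with 16 to 77 counts per library.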
